A study of Mus musculus with 38 samples.

Results

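The insulin-like growth factor (IGF) genes followed here were 10 of the 25746 genes in the deposited expression tables: the 2 ligand genes Igf1 and Igf2, the 2 receptor genes Igf1r and Igf2r, and the 6 binding protein genes Igfbp2, Igfbp3, Igfbp4, Igfbp5, Igfbp6 and Igfbp7. They were chosen by gene symbol, and all 10 passed the filter on low values (at least 1 TPM, a length-scaled share of a library's transcripts, in at least 2 libraries). Regions of open chromatin within 50 kb of each gene were added, which gave 179 of the 123191 regions found by merging the deposited ATAC-seq peaks. The cells were Tcf21 lineage cells sorted by flow cytometry from mouse adipose tissue, 5000 cells per library, and Tcf21 is a transcription factor that the series studies in the growth of visceral fat.

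Wild-type (WT) RNA came from postnatal day 12 (P12, 2 libraries), 3 weeks of age (3W, 7 libraries) and 6 months of age (6M, 2 libraries) on regular diet. It also came from mice given a high-fat diet (HFD) from 6 weeks of age for 1 week (1W HFD, 4 libraries) or for 12 weeks (12W HFD, 5 libraries). Tcf21 knockout (KO) RNA came from 3W on regular diet (5 libraries), 1W HFD (2 libraries) and 12W HFD (2 libraries). ATAC-seq covered KO (2 libraries) and WT (3 libraries) at 3W, and WT at 1W HFD (2 libraries) and 12W HFD (2 libraries). All labels, WT included, name TM (tamoxifen), which switches on the Cre recombinase MerCreMer, by gavage of adults, pregnant females included, at 75 mg/kg per day, or by intragastric injection of newborns at 100 µg per day. The regular diet was from LabDiet and the HFD from Teklad. Which dose each group had, the promoter that drives MerCreMer, the mouse strain and whether libraries are separate animals are not given in the sources used here. If they are not separate animals, the p-values measure only technical spread. The HFD groups differ from 3W in both age and diet, and 1W HFD from 12W HFD likewise, so age, diet and time since tamoxifen cannot be told apart. The 6M group is the regular-diet group of greater age.

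IGF-1 and IGF-2 are secreted hormones that promote growth and survival, and preadipocytes respond to them during fat cell formation. Both signal through the tyrosine kinase receptor encoded by Igf1r, while the receptor encoded by Igf2r takes up IGF-2 and delivers it to lysosomes. Binding proteins (IGFBPs) hold the ligands outside cells and set how much reaches the receptor, and proteases such as the pappalysins cut some of them to set the ligand free. Igf2 is an imprinted gene, read from the paternal copy, and in rodents its expression falls in most tissues after birth. Igf1 is made in the liver and locally under growth hormone.

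Tcf21 itself, the targeted gene, had transcript in all 9 KO libraries. Its 3W values were 20.01, 60.9, 21.9, 48.2 and 25.1 TPM in KO and 37.6 to 109 TPM (median 47.6) in WT, so lower and higher values of both groups overlapped. It read 8.10 and 16.4 TPM in KO and 11.3 to 47.4 TPM in WT at 1W HFD, and 5.67 and 1.64 TPM in KO and 5.86 to 13.5 TPM in WT at 12W HFD. WT and KO are used as each sample's title gives them, because a separate genotype entry disagrees with the title for 22 of the 38 samples. Read in reverse sample order, that entry matches all 38 titles. The deposited TPM columns summed to 918008 to 969385, and 10894 to 12825 genes reached 1 TPM in a library. TPM keeps no read depth, so sequencing depth is unknown here and values carry no interval for counting error. The stromal markers Pdgfra (63.9 to 188 TPM) and Dcn (10335 to 25139 TPM) were present in every library, and the sum of 11 adipose stromal markers ran from 24613 to 43026 TPM. Markers of macrophages moved with age and diet. The sum of 15 of them was 73.1 to 265 TPM in WT 3W, 660 to 985 TPM in WT 1W HFD, 4309 to 12028 TPM in WT 12W HFD and 3368 to 8096 TPM in WT 6M. In bulk libraries, fewer cells that make a transcript and less transcript per cell cannot be told apart.

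Igf2 (ENSMUSG00000048583, mm10 chr7:142650766-142666816) and Igfbp3 (ENSMUSG00000020427, mm10 chr11:7206086-7213923) were the 2 members that fell furthest after 3W. Sequences at their starts are shown, at Igf2 for the windows named A and B below. RefSeq lists 4 start windows for Igf2, each of 300 bases from 250 before the start to 50 after it. Of these, window A, at chr7:142658755-142659054, held a peak in 9 of 9 ATAC-seq libraries, and window B, at chr7:142657447-142657746, in 6 of 9. The Igf2 window at chr7:142661222-142661521, which also held a peak in 6 of 9, and the one furthest upstream are not printed. The single Igfbp3 window, at chr11:7213874-7214173, held a peak in 9 of 9. All 3 printed windows lie on the minus strand and are written 5′ to 3′ from RefSeq (GRCm38.p6, the assembly of mm10). Capitals mark CANNTG, the E-box sequence that basic helix-loop-helix factors such as TCF21 bind.
Igf2 window A: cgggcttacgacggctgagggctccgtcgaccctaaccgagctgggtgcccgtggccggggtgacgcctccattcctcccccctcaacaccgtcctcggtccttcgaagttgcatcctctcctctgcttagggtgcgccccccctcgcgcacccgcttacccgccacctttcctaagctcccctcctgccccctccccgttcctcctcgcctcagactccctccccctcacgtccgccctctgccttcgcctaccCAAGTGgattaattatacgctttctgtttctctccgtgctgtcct
Igf2 window B: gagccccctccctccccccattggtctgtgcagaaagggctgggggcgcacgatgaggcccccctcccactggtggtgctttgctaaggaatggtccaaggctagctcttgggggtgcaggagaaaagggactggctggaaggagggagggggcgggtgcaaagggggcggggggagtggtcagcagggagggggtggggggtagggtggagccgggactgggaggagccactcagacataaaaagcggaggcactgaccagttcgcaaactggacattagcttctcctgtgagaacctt
Igfbp3 window: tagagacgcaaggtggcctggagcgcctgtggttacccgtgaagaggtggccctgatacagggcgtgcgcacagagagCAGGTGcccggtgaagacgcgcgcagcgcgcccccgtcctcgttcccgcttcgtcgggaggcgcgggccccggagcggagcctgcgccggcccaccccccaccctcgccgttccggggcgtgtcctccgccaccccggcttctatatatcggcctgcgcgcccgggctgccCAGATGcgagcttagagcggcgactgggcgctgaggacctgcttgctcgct
Igf2 window A has 1 E-box, CAAGTG. Igf2 window B has no CANNTG. The Igfbp3 window has 2, CAGGTG and CAGATG. The E-box letters were searched on both strands (CANNTG reads as CANNTG on the other strand) and are common: 72.3% of the 32544 RefSeq windows of this length hold one. CAGCTG, present in 16.4% of windows, occurred in the Igf1 window and in no other member's. CATCTG or its reverse complement CAGATG, present in 17.1%, occurred in the Igfbp3 and Igfbp4 windows.

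**Figure D1:**
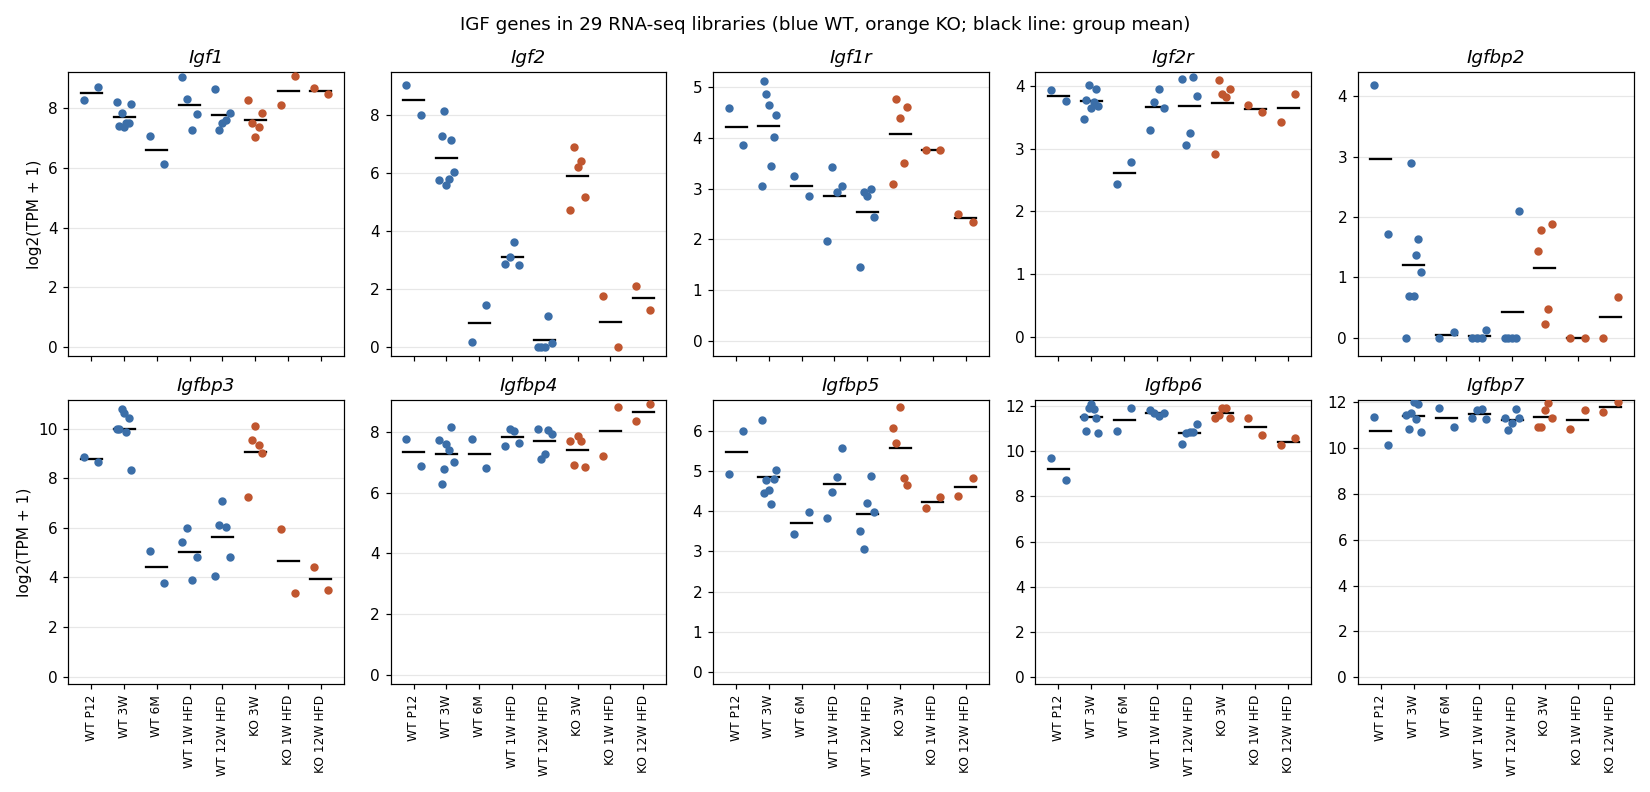
Expression of the 10 IGF genes in 29 RNA-seq libraries: the y axes give log2(TPM + 1), the x axis gives the 8 groups, points are libraries (blue WT, orange KO) and black lines are group means. Igf2 and Igfbp3 are high at P12 and 3W and low in every later group, while Igfbp6 and Igfbp7 are high throughout.

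Of the ligands, Igf2 fell in all comparisons of 3W with a later group, in WT and in KO, and Igf1 passed in none. In the WT cells Igf2 read 517 and 253 TPM at P12. At 3W it ran from 46.9 to 277 TPM with a median of 63.7. After 1W HFD it read 6.33, 7.65, 11.1 and 6.04 TPM, after 12W HFD 0, 0, 0, 1.10 and 0.10 TPM, and at 6M 0.14 and 1.73 TPM. All 11 libraries of these later WT groups were below the lowest WT library of 3W. P12 and 3W overlapped, since the lower P12 library was below the highest 3W library.

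The fall of Igf2 from WT 3W, fitted with limma on log2(TPM + 1), was -3.42 ± 0.46 (SE) by 1W HFD (adjusted p = 5.67e-05). It was -6.28 ± 0.43 by 12W HFD (adjusted p = 1.76e-11) and -5.70 ± 0.59 by 6M (adjusted p = 4.96e-07). Igf2 fell again between 1W and 12W HFD in WT, by 2.86 on that log2 scale (SE 0.50, adjusted p = 0.000302), where the groups did not overlap. From P12 to 3W the change was -1.98 ± 0.59 with adjusted p = 0.0858, which does not pass the threshold of 0.05. With levels this close to 0, the scale understates the change in TPM. 6M and 12W HFD differed by -0.58 ± 0.62 in limma (adjusted p = 0.749), with overlapping values.

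In the KO cells Igf2 read 25.2, 118, 72.3, 84.02 and 34.6 TPM at 3W, 2.40 and 0 TPM at 1W HFD and 3.33 and 1.45 TPM at 12W HFD. No KO library after HFD reached the lowest KO library of 3W. The changes from KO 3W were -4.99 ± 0.62 by 1W HFD (limma adjusted p = 2.98e-05) and -4.17 ± 0.62 by 12W HFD (limma adjusted p = 4.85e-05). Igf2 overlaps the gene Gm49394, which was listed at 0 in every library except 1 WT library at 0.09 TPM.

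Igf1 (ENSMUSG00000020053, chr10:87858265-87937042) was present in every library. It averaged 367 ± 74.6 TPM (SD, n = 2) at P12, 215 ± 55.4 (n = 7) at WT 3W, 309 ± 166 (n = 4) at WT 1W HFD, 233 ± 99.2 (n = 5) at WT 12W HFD and 101 ± 45.0 (n = 2) at 6M. In KO cells it averaged 204 ± 69.99 (n = 5) at 3W, 407 ± 188 (n = 2) at 1W HFD and 382 ± 38.2 (n = 2) at 12W HFD. Each group overlapped the next when ordered by mean. The 6M libraries, at 133 and 69.4 TPM, were both below all 7 libraries of WT 3W (-1.11 ± 0.38, limma adjusted p = 0.0547) and all 5 of WT 12W HFD, where the change from 6M was 1.18 ± 0.39 (limma adjusted p = 0.146). Neither passed. Macrophages also make Igf1, and their marker sum was 3368 and 8096 TPM at 6M. Their part in these values was not tested.

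TPM is scaled to transcript length, so the ligands can be compared with each other. Igf2 made up 49.9% ± 17.4 (SD, n = 2) of the summed ligand TPM at P12 and 31.97% ± 15.9 (n = 7) at WT 3W. It made up 25.8% ± 14.4 (n = 5) at KO 3W. After 1W HFD the share in WT was 3.21% ± 2.41 (n = 4), and after 12W HFD 0.122% ± 0.249 (n = 5). Igf2 was above Igf1 in 2 of 29 libraries, 1 of P12 and 1 of WT 3W.

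Of the receptors, Igf1r (ENSMUSG00000005533, chr7:67952827-68233668) fell from WT 3W to both HFD groups. It ran from 7.33 to 33.9 TPM with a median of 20.97 at WT 3W. After 1W HFD it read 2.94, 9.78, 6.66 and 7.33 TPM, and after 12W HFD 1.76, 6.67, 6.23, 7.01 and 4.47 TPM. The 12W HFD values were all below 3W, and the 1W HFD values overlapped 3W through the lowest 3W library and the highest 1W library. The change was -1.39 ± 0.39 by 1W HFD (limma adjusted p = 0.0272) and -1.69 ± 0.37 by 12W HFD (limma adjusted p = 0.00149). The 1W call is lost with only the groups compared in the fit (adjusted p = 0.0502). It is also lost without 1 of the WT 3W replicates 2 or 3, or of the WT 1W HFD replicates 1, 3 or 4, with adjusted p up to 0.121.

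In KO cells Igf1r read 7.5, 26.4, 20, 10.3 and 23.6 TPM at 3W, 12.64 and 12.68 TPM at 1W HFD and 4.70 and 4.09 TPM at 12W HFD. The 12W HFD libraries were below every KO library of 3W, with a change of -1.65 ± 0.52 and limma adjusted p = 0.0680. That size is close to the WT change of -1.69. The difference between the KO and the WT change was 0.05 ± 0.64 (limma adjusted p = 1). At 6M Igf1r read 8.54 and 6.25 TPM (-1.18 ± 0.50 from WT 3W, limma adjusted p = 0.133).

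Igf2r (ENSMUSG00000023830, chr17:12682406-12769664) had means between 11.4 and 13.4 TPM in 7 of the 8 groups, with overlapping values. At 6M it read 4.42 and 5.90 TPM, below all 7 WT 3W libraries (10.1 to 15.2 TPM, median 12.3). That fall was -1.14 ± 0.32 (limma adjusted p = 0.0205). The call is lost with only the groups compared (adjusted p = 0.0805), without either 6M library (0.215 without replicate 1 and 0.0752 without replicate 2) and with median-ratio scaling of the columns (-0.87, adjusted p = 0.0712). In this comparison the median over all 15659 genes was itself -0.24, and -0.03 after that scaling. Igf2r at 12W HFD was above 6M in 5 of 5 libraries (1.06 ± 0.33, limma adjusted p = 0.114), which does not pass.

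Of the binding proteins, Igfbp3, the main carrier of IGFs in blood, fell steeply after 3W in both genotypes. It read 467 and 399 TPM at P12 and ran from 322 to 1749.95 TPM with a median of 1009.6 at WT 3W. After 1W HFD it read 42.6, 63.1, 13.9 and 27.1 TPM, after 12W HFD 15.6, 68.9, 134, 65.0 and 27.4 TPM, and at 6M 32.4 and 12.9 TPM. None of these later libraries reached the lowest library of P12 or of 3W. The changes from WT 3W were -4.96 ± 0.56 by 1W HFD (limma adjusted p = 3.83e-06), -4.37 ± 0.52 by 12W HFD (adjusted p = 3.31e-07) and -5.57 ± 0.71 by 6M (adjusted p = 7.26e-06). Between 1W and 12W HFD Igfbp3 changed by 0.59 ± 0.60 in WT (limma adjusted p = 0.689), with overlapping values.

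In KO cells Igfbp3 read 149, 748, 1088, 647 and 523 TPM at 3W, 60.4 and 9.35 TPM at 1W HFD and 20.1 and 10.2 TPM at 12W HFD. The HFD libraries were all below 3W. The changes from KO 3W were -4.39 ± 0.74 by 1W HFD (limma adjusted p = 0.00258) and -5.10 ± 0.74 by 12W HFD (limma adjusted p = 4.07e-05). Without KO 1W HFD replicate 2 the first is -3.11 with adjusted p = 0.188. From P12 to WT 3W the change was 1.24 ± 0.71 (limma adjusted p = 0.443), with overlap through the lowest 3W library.

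Igfbp6 (ENSMUSG00000023046, chr15:102144362-102149511), whose product prefers IGF-2 over IGF-1, was the 1 member called higher from P12 to WT 3W. It read 821 and 422 TPM at P12 and ran from 1757 to 4339 TPM with a median of 2925 at WT 3W. Every 3W library was above both P12 libraries, and the rise was 2.29 ± 0.32 (limma adjusted p = 0.000193). After 1W HFD it read 3644, 3271, 3017 and 3298 TPM, and after 12W HFD 1257, 1783, 1852, 1843 and 2382 TPM. The 12W values were all below those of 1W (-0.88 ± 0.27, limma adjusted p = 0.0474) and overlapped those of 3W (-0.69 ± 0.23, adjusted p = 0.0449). In KO cells Igfbp6 fell from 2848, 3140.4, 3792, 3835 and 2786 TPM at 3W to 1231 and 1511 TPM at 12W HFD (-1.25 ± 0.33, limma adjusted p = 0.0220). The fall from WT 3W to 12W HFD is lost without any 1 library except WT 3W replicates 2 and 7 and WT 12W HFD replicate 5 (limma adjusted p up to 0.157), and that from WT 1W HFD without any 1 except WT 12W HFD replicate 5 (up to 0.138). The KO fall is lost without KO 12W HFD replicate 1 (0.250) or replicate 2 (0.131).

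Endothelial markers also differed at P12, the sum of 14 being 376 and 1114 TPM there and 65.1 to 129 TPM at WT 3W. The sum of 9 pericyte and smooth muscle markers was 1519 and 2918 TPM at P12 and 116 to 2751 TPM at WT 3W. The defining endothelial marker Pecam1 averaged 71.1 TPM at P12 and 1.53 TPM at WT 3W. Their part in the Igfbp6 values was not tested.

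Igfbp7 (ENSMUSG00000036256, chr5:77349240-77408041), a family member with low affinity for IGFs, passed in no comparison and had group means between 1847 and 3528 TPM. Igfbp4 (ENSMUSG00000017493, chr11:99041244-99054392), a substrate of the pappalysin PAPP-A, also passed in none, with group means from 163 to 404 TPM. Igfbp5 (ENSMUSG00000026185, chr1:72857932-72874884), which binds the extracellular matrix, ran from 7.30 to 94.9 TPM over all libraries with no call. Igfbp2 (ENSMUSG00000039323, chr1:72824503-72852474) was low. It read 17.3 and 2.3 TPM at P12, ran from 0 to 6.45 TPM at WT 3W (median 1.13) and from 0.17 to 2.70 TPM at KO 3W. In the later groups it was listed at 0 in 11 of 15 libraries, the others reading 0.07, 0.10, 3.30 and 0.60 TPM.

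Together the 6 binding protein genes were dominated by Igfbp6 and Igfbp7, which were the 2 most abundant of the 10 members in 29 of 29 libraries. Their summed TPM averaged 3124 ± 1408 (SD, n = 2) at P12, 7164 ± 2209 (n = 7) at WT 3W, 6454 ± 329 (n = 4) at WT 1W HFD, 4564 ± 751 (n = 5) at WT 12W HFD and 5707 ± 218 (n = 2) at 6M. Igfbp3 held 15.05% ± 5.24 (n = 2) of that sum at P12 and 15.6% ± 4.37 (n = 7) at WT 3W. It held 0.564% ± 0.305 (n = 4) at WT 1W HFD, 1.40% ± 1.10 (n = 5) at WT 12W HFD and 0.401% ± 0.257 (n = 2) at 6M. Igfbp7 had the largest mean share at P12, 57.6% ± 6.65 (n = 2) against 19.9% ± 0.0686 for Igfbp6. In the 12W HFD groups it held 53.4% ± 6.75 (n = 5) against 40.1% ± 7.37 in WT and 65.9% ± 1.02 (n = 2) against 25.8% ± 1.35 in KO. In WT 12W HFD replicate 2, Igfbp6 was the larger, 47.7% against 46.6%. In KO 1W HFD the means were 48.5% ± 15.3 (n = 2) for Igfbp7 and 44.7% ± 18.4 for Igfbp6, but the libraries disagreed. Igfbp7 held 37.7% and Igfbp6 57.7% in replicate 1, and 59.4% and 31.6% in replicate 2.

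**Figure D2:**
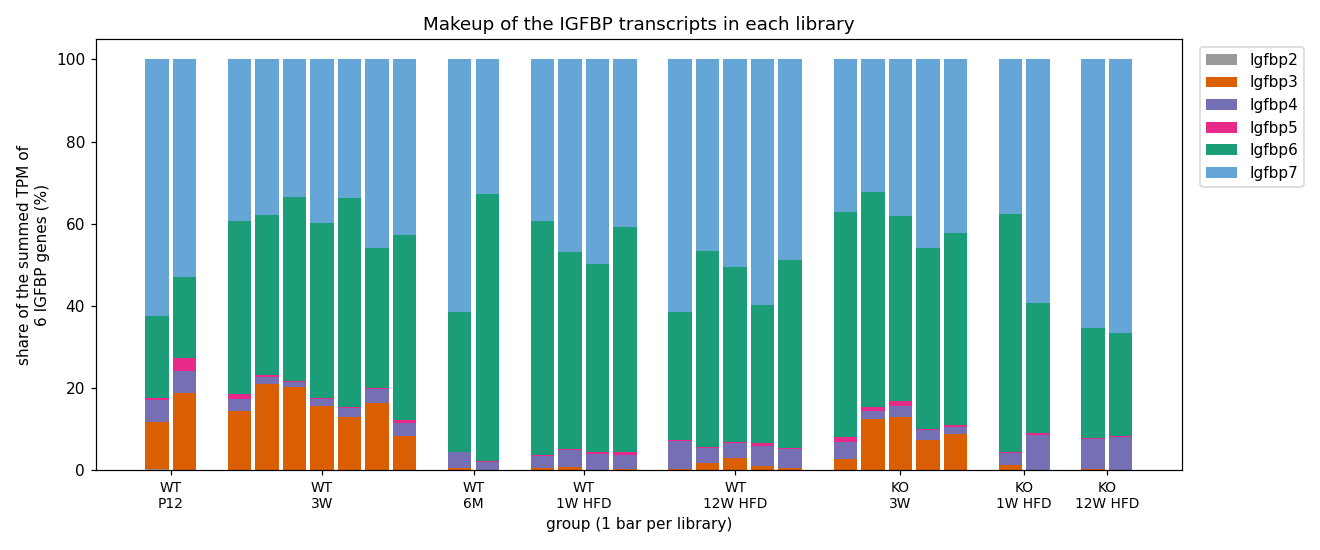
Share of each binding protein gene in the summed TPM of the 6 genes (y axis, percent), with 1 bar per library and libraries arranged by group (x axis). Igfbp3 holds 15.6% on average at WT 3W and 0.564% at WT 1W HFD, and Igfbp6 and Igfbp7 fill most of every bar.

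The share of members called is given beside that of all genes tested. The members were chosen with earlier results of these data known, so these counts are descriptions. From P12 to WT 3W, 1 of 10 members was higher (Igfbp6), where 0.626% of all genes were called higher and 1.63% in either direction. From WT 3W to 6M 3 of 10 members were lower and 0 higher, where 6.85% of all genes were called lower and 4.00% higher. From WT 3W to 1W HFD 3 of 10 were lower, where 3.25% of all genes were lower and 4.78% higher (8.03% in all). From WT 3W to 12W HFD 4 of 10 were lower, where 6.23% of all genes were lower and 7.94% higher. From WT 1W to 12W HFD 2 of 10 were lower, where 2.39% of all genes were lower and 3.54% higher (5.93% in all). From 6M to 12W HFD 0 of 10 were called in limma, with 2 at an unadjusted p under 0.05, where 0.702% of all genes were higher and 0.179% lower (0.881% in all). From KO 3W to 1W HFD 2 of 10 were lower, where 0.434% of all genes were lower (0.862% in either direction). From KO 3W to 12W HFD 3 of 10 were lower, where 1.96% of all genes were lower and 3.19% higher. From KO 1W to 12W HFD 0 of 10 were called in limma, with 1 at an unadjusted p under 0.05, where 0.760% of all genes were called. The comparisons that start from WT 3W share those 7 libraries, and those that start from KO 3W share those 5, so the repeated calls of Igf2 and Igfbp3 are not separate observations of the 3W level. The median change of the 10 members from WT 3W to 12W HFD was -0.74, and that of all genes tested -0.04. No member passed in the higher direction after 3W.

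**Figure D3:**
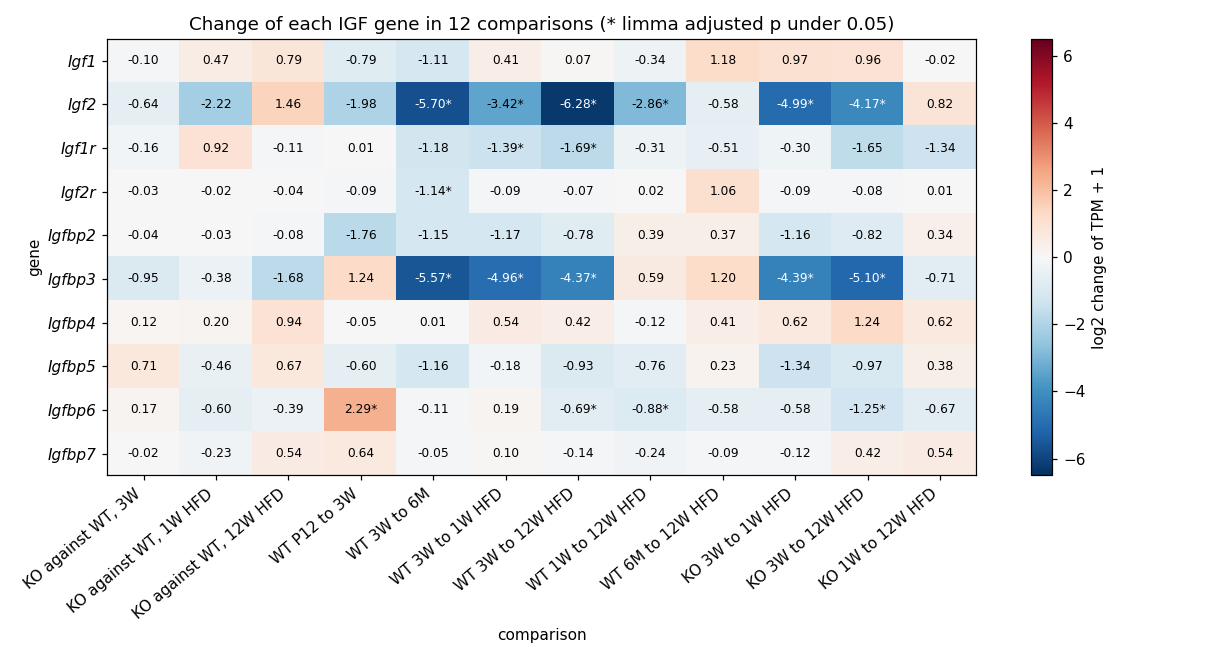
The log2 change of TPM + 1 of each gene (rows) in the 12 comparisons (columns), printed in each cell and coloured from blue (lower in the second group, or in KO) to red, with an asterisk where the limma adjusted p is under 0.05. Igf2 and Igfbp3 carry the largest changes, -6.28 and -5.57, and the 3 columns of KO against WT hold no asterisk.

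At 1W HFD, where macrophage markers summed to 660 to 985 TPM in WT, the stromal marker sum of 29624 to 36025 TPM lay within the WT 3W range of 26003 to 43026 TPM. Pdgfra was 85.5 to 105 TPM at WT 1W HFD against 104 to 188 TPM at WT 3W. Dcn was 15135 to 22165 TPM against 11084 to 21164 TPM. Igf2 and Igfbp3 at WT 1W HFD were below every WT 3W library. At 12W HFD the stromal sum was 24616 to 26919 TPM in WT, with Pdgfra at 122 to 184 TPM against 104 to 188 TPM at 3W. Of the 15 macrophage markers 12 were called higher from WT 3W to 1W HFD and 15 to 12W HFD, and in KO cells 4 and 14. The sum of 14 endothelial markers was 217 to 607 TPM at WT 1W HFD, 102 to 363 TPM at WT 12W HFD and 95.4 to 118 TPM at 6M, against 65.1 to 129 TPM at WT 3W, and 9 of the 14 were called higher by 1W HFD and 5 by 12W HFD. The sum of 9 pericyte and smooth muscle markers went the other way, from 116 to 2751 TPM at WT 3W to 70.5 to 237 TPM at 1W HFD, 94.1 to 191 TPM at 12W HFD and 29.8 to 58.7 TPM at 6M, with 3, 4 and 4 of the 9 called lower. The sum of lymphocyte markers was 0.22 to 4.66 TPM at WT 3W and 10.9 to 156 TPM at WT 12W HFD. The other sums overlapped between WT 3W and WT 12W HFD. They were 49.7 to 112 and 38.4 to 63.5 TPM for mesothelial markers, and 189 to 1233 and 325 to 1402 TPM for adipocyte markers. For erythroid markers they were 1116 to 9489 and 3614 to 41700 TPM. The part of all these cell type markers in the falls of Igf2, Igfbp3, Igf1r, Igf2r and Igfbp6 was not tested.

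The comparison of KO with WT asks what Tcf21 loss does to these genes, and at no age did a member pass in limma. Tcf21 itself did not pass at any age. Its log2 difference was -0.91 ± 0.35 (SE) at 3W, -0.71 ± 0.52 at 1W HFD and -1.26 ± 0.51 at 12W HFD. In WT it was called lower from 3W to 1W HFD (-1.57 ± 0.38), 12W HFD (-2.62 ± 0.35) and 6M (-3.74 ± 0.49). Because the comparison did not call the targeted gene, the absence of member calls cannot decide what Tcf21 loss does to the members. At 3W, 0 of 10 members and 0% of all genes were called, with 0 members at an unadjusted p under 0.05. At 1W HFD 0 of 10 were called, where 0.0255% of genes were, with 1 member at an unadjusted p under 0.05. At 12W HFD 0 of 10 were called, where 0.00639% were, with 3 members at an unadjusted p under 0.05. A p that misses the threshold does not show that the levels were equal.

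At 3W Igfbp3 averaged 1141 ± 479 TPM (SD) over 7 WT libraries and 631 ± 341 TPM over 5 KO libraries, a difference of -0.95 ± 0.52 (limma adjusted p = 1). Its values overlapped, and without KO replicate 1 the difference was -0.50. The lowest KO library, replicate 1 at 149 TPM, also had the lowest sum of 14 immediate early genes, 6163 TPM against 12600 TPM or more elsewhere, and the highest sum of 14 cell cycle genes, 982 TPM. Macrophage markers summed to 138 to 736 TPM in KO 3W, highest in replicate 1, and 73.1 to 265 TPM in WT 3W. Their part in the 3W differences was not tested. Over the 6 pairings of KO and WT libraries that the titles name, Igfbp3 was lower in KO in 4 and Igf2 in 5. The 6 pairings are not separate, because KO replicate 3 is paired with both WT replicate 3 and WT replicate 5. In KO replicate 3 both genes were below WT replicate 3 and above WT replicate 5. Igfbp5 was 31.5 ± 20.2 TPM in the 7 WT libraries and 52.7 ± 29.3 TPM in the 5 KO libraries, a difference of 0.71 ± 0.37 (limma adjusted p = 1). Igf2 differed by -0.64 ± 0.43 (-0.35 without KO replicate 1 and -0.38 without WT replicate 3), and the other 7 members by between -0.16 and 0.17, all with limma adjusted p = 1.

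At 1W HFD the Igf2 values in KO, 2.40 and 0 TPM, were both below the 4 WT values of 6.33, 7.65, 11.1 and 6.04 TPM. The difference was -2.22 ± 0.64, with an unadjusted p = 0.00176 and a limma adjusted p = 0.902. It was -1.34 without KO replicate 2 and -3.94 with a pseudocount of 0.1. Igf1r was above WT in both KO libraries (12.64 and 12.68 TPM against 2.94 to 9.78 TPM; 0.92 ± 0.54, limma adjusted p = 1). Igfbp6 was below WT in both (2801 and 1686 TPM against 3017 to 3644 TPM; -0.60 ± 0.35, limma adjusted p = 1), with -0.97 without KO replicate 1 and -0.24 without KO replicate 2. Igfbp3 differed by -0.38 ± 0.77, and turned to 0.90 without KO replicate 2. Macrophage markers summed to 1356 and 1434 TPM in KO and 660 to 985 TPM in WT, with no overlap. Mesothelial markers summed to 181 and 94.6 TPM in KO and 80.3 to 123 TPM in WT, with overlap. The part of these markers in the 1W HFD differences was not tested.

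At 12W HFD the Igf2 values in KO, 3.33 and 1.45 TPM, were both above the 5 WT values, of which the highest was 1.10 TPM. The difference was 1.46 ± 0.62 (unadjusted p = 0.0255, limma adjusted p = 1), and 3.61 with a pseudocount of 0.1. Igfbp4 was 329 and 479 TPM in KO and 137 to 273 TPM in WT, with no overlap (0.94 ± 0.43, limma adjusted p = 1). Igfbp3 was 20.1 and 10.2 TPM in KO and 15.6 to 134 TPM in WT, with overlap (-1.68 ± 0.74, limma adjusted p = 1). Igf1 was 409 and 355 TPM in KO and 155 to 404 TPM in WT (0.79 ± 0.39, limma adjusted p = 1). Macrophage markers summed to 3474 and 7213 TPM in KO and 4309 to 12028 TPM in WT, and their part in these values was not tested.

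Whether the change with age and diet differed between KO and WT was tested as the difference of the changes. No member passed in limma in any of the 3 tests, in which 0.00639%, 0% and 0.0128% of genes were called for 3W to 1W HFD, 3W to 12W HFD and 1W to 12W HFD. The numbers of members at an unadjusted p under 0.05 were 0, 1 and 1. That member was Igf2. Its difference was 2.11 ± 0.76 from 3W to 12W HFD (unadjusted p = 0.00951, limma adjusted p = 1) and 3.68 ± 0.89 from 1W to 12W HFD (unadjusted p = 0.000302, limma adjusted p = 0.584). All KO groups after 3W have 2 libraries.

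**Figure D4:**
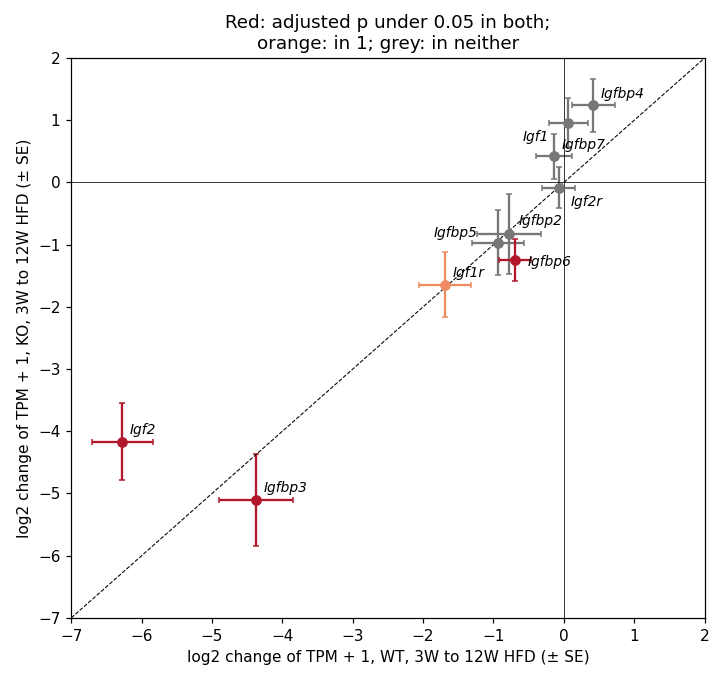
The log2 change of TPM + 1 from 3W to 12W HFD in WT (x axis) and KO (y axis) for each of the 10 genes, with bars of 1 SE and a dashed line of equal change; red points passed in both genotypes, the orange point in 1 and grey points in neither. Igf2 (-6.28 in WT, -4.17 in KO), Igfbp3 and Igfbp6 are red, and Igf1r (-1.69 and -1.65) is orange.

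The other genes of the pathway were taken from 6 lists of 62 genes, of which 60 were in the tables and 56 passed the filter. None was called between KO and WT at any age, from P12 to 3W, from 6M to 12W HFD or from KO 1W to 12W HFD. From WT 3W, 19 of 56 were lower by 6M, 10 by 1W HFD and 21 by 12W HFD, where 6.85%, 3.25% and 6.23% of all genes were called lower, and 0, 0 and 2 were higher. From WT 1W to 12W HFD 4 were lower (Mest, Pik3r1, Dlk1 and Insrr) and 1 was higher (Mmp3), where 2.39% of all genes were lower and 3.54% higher. From KO 3W 4 were lower by 1W HFD and 10 by 12W HFD, where 0.434% and 1.96% of all genes were lower, and 0 and 2 were higher. The lists were drawn up with earlier results of these data known, so these counts are descriptions. The medians over the 56 genes were -0.64 by 6M, -0.32 by 1W HFD and -0.48 by 12W HFD in WT, where all genes had -0.24, 0.02 and -0.04.

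Of 10 genes listed as imprinted neighbours and partners, not all of them imprinted themselves, 6 fell from WT 3W to 12W HFD and 6 in KO. Dlk1, which holds back fat cell formation, changed by -6.75 ± 0.34 in WT (limma adjusted p = 9.15e-14) and -6.39 ± 0.49 in KO (adjusted p = 2.96e-09). Peg3, a zinc finger gene, changed by -2.88 ± 0.31 and -3.49 ± 0.44, and Mest by -3.48 ± 0.37 and -3.40 ± 0.53, all with limma adjusted p of at most 8.89e-05. Zim1, the neighbour of Peg3, changed by -2.69 ± 0.31 in WT and -1.98 ± 0.44 in KO (limma adjusted p = 2.16e-07 and 0.00515). This list holds partners that earlier results of these data had shown to fall.

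Of 9 genes for IGFBP proteases and their inhibitors, 4 fell and 2 rose from WT 3W to 12W HFD. Stc1, a stanniocalcin that inhibits pappalysins, went from 46.4 ± 27.2 TPM (SD, n = 7) to 1.40 ± 0.920 TPM (n = 5), a change of -4.22 ± 0.59 (limma adjusted p = 5.41e-06). Pappa, which encodes the protease that cuts IGFBP4, went from 4.99 ± 3.69 to 0.5 ± 0.281 TPM (-1.82 ± 0.36, adjusted p = 0.000566). Pappa2, whose product cuts IGFBP3 and IGFBP5, went from 3.37 ± 2.19 to 0.0160 ± 0.0261 TPM (-1.92 ± 0.44, adjusted p = 0.00266). Mmp3, a matrix protease, rose from 52.9 ± 23.7 to 407 ± 311 TPM (2.73 ± 0.53, adjusted p = 0.000406). Ctsd, a lysosomal protease that macrophages make in quantity, rose from 296 ± 95.2 to 848 ± 461 TPM (1.40 ± 0.28, adjusted p = 0.000709).

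Of 9 insulin receptor and adaptor genes 4 fell from WT 3W to 12W HFD, among them Grb10, an imprinted adaptor that dampens the receptors, from 158 ± 52.2 to 59.1 ± 16.9 TPM (-1.39 ± 0.24, limma adjusted p = 0.000114). Irs1, which couples the receptors to PI3K, fell from 7.13 ± 2.35 to 2.46 ± 0.636 TPM (-1.19 ± 0.27, limma adjusted p = 0.00253). Of 17 kinase and Foxo genes 4 fell, among them Pik3r1, the regulatory subunit of PI3K, from 62.3 ± 17.8 to 17.4 ± 4.87 TPM (-1.77 ± 0.21, limma adjusted p = 3.98e-07). Igf2bp2, an RNA-binding protein named for the Igf2 transcript, fell from 33.1 ± 3.74 to 11.2 ± 3.72 TPM (-1.54 ± 0.33, limma adjusted p = 0.00138). Of 8 genes of growth hormone input 2 fell, the feedback inhibitors Socs3 and Cish. The growth hormone receptor gene Ghr ran from 78.03 to 177 TPM over the 29 libraries and was not called. Igfbp1, the one other classical binding protein gene, was listed at 0 in 28 of 29 libraries and did not pass the filter.

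The genes whose levels ran most like Igf2 over the 29 libraries, among 11287 genes with a group mean of at least 5 TPM, were Pygm (r = 0.96), Mpzl1 (r = 0.96) and Dlk1 (r = 0.95). Those most like Igfbp3 were Spock2 (r = 0.93), Zim1 (r = 0.91) and Dlk1 (r = 0.90). Those most like Igf1r were Lepr, the leptin receptor gene (r = 0.88), Mmp16 (r = 0.84) and Thra (r = 0.84). Those most like Igfbp6 were Slc43a3 (r = 0.87), Fam110a (r = 0.79) and Dpep1 (r = 0.77). For the other 6 members the closest genes were Dab2 for Igf2r (r = 0.84), Fam129b for Igfbp4 (r = 0.83), Cygb for Igfbp7 (r = 0.82), Casq1 for Igfbp2 (r = 0.79), Gfm1 for Igf1 (r = 0.77) and Atp5a1 for Igfbp5 (r = 0.73). These values of Pearson's r on log2(TPM + 1) are descriptions over libraries that share groups, ages and diets.

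Open chromatin was read from the peak lists, where a region counts as open in a library that has a peak overlapping it. Of the 179 regions near the members, 59 (33.0%) were open in all 9 libraries, and 29% of all regions were. Igf1r had 52 regions, Igf2r 38, Igf1 19, Igfbp6 17, Igfbp4 15, Igfbp7 12, Igfbp3 10, Igfbp5 9, Igfbp2 8 and Igf2 7. Igfbp2 and Igfbp5 are neighbours and share regions. The patterns below are given as counts beside those of all regions, with no test. Between 55990 and 93314 peaks were called per library, covering 75.6 to 173 Mb, so absence of a peak can also be a matter of how much was called.

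Igf2 window B, printed above without an E-box, held a peak in 3 of 3 WT and 2 of 2 KO libraries at 3W, in 1 of 2 at 1W HFD and in 0 of 2 at 12W HFD. A window counts as holding a peak that overlaps it by at least 1 bp. Measured from the gene start in the direction of transcription, window B runs from 9070 to 9369 bp. The peaks of KO 3W replicate 1 and WT 1W HFD replicate 1 began at 9325 and 9329 bp, so they touched only its downstream end. Peak names start with the letter B in WT 3W replicates 2 and 3 and KO 3W replicate 2 and with A in the other 6 libraries, all 4 of HFD among them. What the letter marks is not stated in the labels, and its part in this pattern was not tested. Among the A libraries window B held a peak in 2 of 2 at 3W and 1 of 4 at HFD, and no HFD library is named B. With only peaks of −log10 q of at least 5 it was open in 2 of the 5 libraries of 3W and 1 of the 4 of HFD. With an equal number of strongest peaks per library it was open in 3 of 5 and 0 of 4. Under both settings the 3W libraries with a peak were all WT, and neither KO library held one. Igf2 window A stayed open in 9 of 9, and in 8 of 9 with equal numbers of peaks. Of the other Igf2 windows, the one furthest upstream held no peak in any library and the next held one in 6 of 9. Over the gene and 5 kb on each side, peaks at Igf2 covered 7971, 3244 and 3688 bp in WT 3W, 5568 and 4398 bp in KO 3W, 4173 and 2748 bp in 1W HFD and 2507 and 1020.0 bp in 12W HFD. The 12W HFD libraries had the least covered length at Igf2. Their lists covered 122 and 146 Mb in all, those of 1W HFD 173 and 137 Mb and those of WT 3W 75.6 to 112 Mb. The part of the amount called in the covered length at Igf2 was not tested.

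At Igfbp3 the start window was open in every library at both 3W and HFD. The covered length there was 7315, 6711 and 5829 bp in WT 3W, 8770.0 and 5157 bp in KO 3W, 6294 and 4954 bp in 1W HFD and 4711 and 4548 bp in 12W HFD. The region at its 3′ end (chr11:7204463-7206202) was open in 3 of 3 WT 3W libraries, 1 of 2 KO 3W libraries and 0 of 4 HFD libraries. It was the 1 of 179 regions (0.559%) open in all WT 3W and no HFD library, where 0.189% of all regions were. That count was 0 with peaks of −log10 q of at least 5 and 5 with an equal number of strongest peaks per library.

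**Figure D5:**
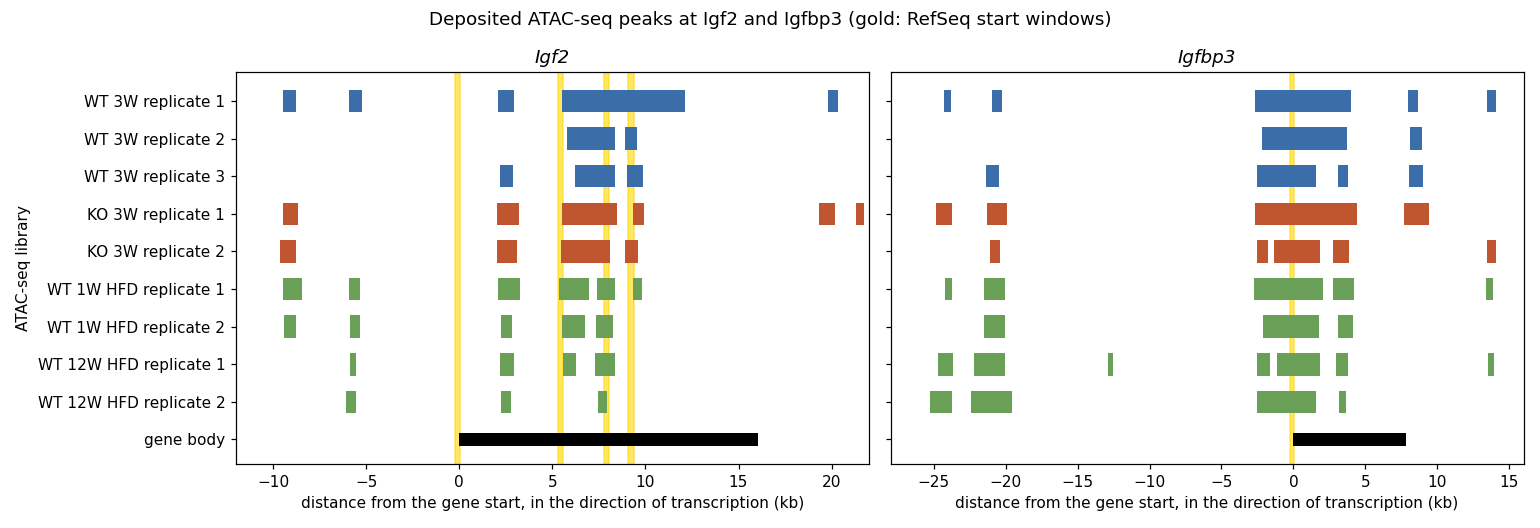
Deposited ATAC-seq peaks (bars) of each library (y axis) against the distance from the gene start in the direction of transcription (x axis, kb) at Igf2 and Igfbp3; blue is WT 3W, orange KO 3W, green WT HFD, black the gene body and gold the RefSeq start windows. Igf2 window B, the last in the direction of transcription, has a peak in all 5 libraries of 3W and in 1 of the 4 HFD libraries. In KO 3W replicate 1 and WT 1W HFD replicate 1 the peak touches only the end of window B. The Igfbp3 window has a peak in all 9.

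Of the other patterns, 1 of 179 regions (0.559%) was open in all 4 HFD libraries and no WT 3W library, where 3.81% of all regions were. It lies 5′ of Igf1 at chr10:87854567-87855714. Open in both KO and no WT 3W library were 3 of 179 (1.68%), where 2.98% of all regions were: chr10:87961889-87963127 3′ of Igf1, chr7:67994321-67996786 inside Igf1r and chr5:77394085-77395024 inside Igfbp7. Open in all WT 3W and no KO 3W library were 0 of 179, where 0.0503% of all were. The start windows of Igf1, Igf1r, Igf2r, Igfbp3, Igfbp4, Igfbp5, Igfbp6 and Igfbp7 held a peak in 9 of 9 libraries, and the 2 of Igfbp2 in 7 and 9, while 44.2% of all 32544 windows did so in 9 and 42.6% in none. Igfbp2 was thus open at its start while listed at or near 0 in most RNA libraries after 3W.

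Within each library, the share of the 179 regions that were open can be set beside the share of all regions. It was 12.6, 5.15 and 9.57 percentage points above in WT 3W, 6.5 and 3.58 above in KO 3W and 2.40 above in 1W HFD replicate 2. It was -0.73 points in 1W HFD replicate 1 and -6.53 and -11.2 points in the 12W HFD libraries. Without the Igf1r and Igf2r windows, a check added after seeing the data, the 89 other regions gave -1.71 and -0.78 points at 12W HFD, and 14.7, 3.72 and 10.4 points in WT 3W. At Igf1r, where RNA was lower at 12W HFD, 39, 29 and 27 of 52 regions were open in WT 3W, 40 and 30 in KO 3W, 37 and 33 in 1W HFD and 31 and 24 in 12W HFD, so the groups overlapped.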

How the data were processed

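RNA abundance was deposited by the authors as TPM per gene in a WT table and a KO table, and each ATAC-seq library as its own peak list on mm10 with a score, a fold (ratio) over background, and p and q values as −log10. Tools listed in the submitters' processing notes are Bowtie2 2.3, MACS2, Trim Galore 0.6, STAR 2.5.3a, FastQC and RSEM. Whether counting used strand is not stated there. The series-wide fit used log2(TPM + 1) for 15659 genes in 29 libraries with limma 3.58.1 (R 4.3.3; 8 group means, no block, 21 residual degrees of freedom, eBayes with a trend, two-sided). Benjamini-Hochberg adjustment covered all tested genes at a threshold of 0.05, and changes are on the log2(TPM + 1) scale. The fit was tested on simulated data. Peaks overlapping by 1 bp were merged over 9 libraries. No mapping of replicates to animals was found. Titles number KO and WT pairs at 3W without saying what a pair shares, so the fit has no block. All 10 members are named in every comparison. Also named are the 3 genes most like a member, by Pearson's r, and up to 4 called pathway genes per comparison, with further examples chosen after their values were seen. Members, gene lists and marker lists were chosen with earlier results of these data known. Alternatives were another pseudocount (0.1), no filter, rescaled columns, median-ratio scaling, only the groups compared, a replicate block and leaving out each library. The library sums given are mainly of macrophage, endothelial, pericyte and stromal markers, with those of other cell types for some groups. Over all 29 libraries the sums of lymphocyte markers were 0 to 156 TPM and of mesothelial markers 17.4 to 181 TPM. Those of erythroid markers were 9.68 to 41700 TPM and of adipocyte markers 189 to 1976 TPM.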

Additional observations from a re-analysis of the deposited data

Results flagged for a closer look

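KO and WT libraries lay on opposite sides of each other for Igf2 at 1W and 12W HFD: every KO library was below every WT library at 1W HFD and above every one at 12W HFD. The difference of the log2 changes was 3.68 ± 0.89, with limma adjusted p = 0.584, and it rests on 2 KO libraries at each time and on levels of at most 11.1 TPM.

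A single library stood far from the rest of its group in 5 of the 40 gene and group combinations examined with 4 to 7 libraries. The rule set the gap to the nearest library against the range of the group in TPM. It marks about 5% of groups by chance only where values are normally distributed. A group listed at 0 in every library but 1 is always marked, so the count cannot be set against that rate. Igf2 read 1.10 TPM in WT 12W HFD replicate 4, where the other 4 read 0 to 0.10 TPM. Igfbp2 read 6.45 TPM in WT 3W replicate 3, 0.10 TPM in WT 1W HFD replicate 4 and 3.30 TPM in WT 12W HFD replicate 5, where the last 2 groups were otherwise listed at 0. Igfbp5 read 76.1 TPM in WT 3W replicate 1, where the next was 31.3 TPM.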

How the results depend on the processing

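The falls of Igf2 and Igfbp3 from 3W kept their direction and call under every alternative run, except Igfbp3 from KO 3W to 1W HFD without KO 1W HFD replicate 2. With a pseudocount of 0.1 the Igf2 fall from WT 3W to 12W HFD was -8.90. Members called from P12 to WT 3W were 1 to 2 when libraries were left out. From WT 1W to 12W HFD they were 1 with a pseudocount of 0.1, with no filter and with median-ratio scaling, and 1 to 2 when libraries were left out, since Igfbp6 lost its call (adjusted p 0.0503, 0.0822 and 0.116). From KO 3W to 1W HFD they were 1 to 2, and from KO 3W to 12W HFD 2 to 4. Igfbp6 from WT 3W to 12W HFD lost its call with no filter (adjusted p = 0.0747), median-ratio scaling (0.0870) and only the groups compared (0.0731). Igfbp3 in KO against WT at 1W HFD ran from -1.67 to 0.90 when libraries were left out. With the title numbers as a replicate block, Igf2r from WT 3W to 6M was -0.96 (adjusted p = 0.113) and Igfbp6 from KO 3W to 12W HFD -1.05 (0.0841), and no other call of a member changed. With the 3W title pairs as a replicate block, KO against WT at 3W gave 0 called genes, Igfbp3 -0.73 (adjusted p = 0.950) and Igf2 -0.75 (0.898). Deviations from the group mean correlated from -0.13 to 0.48 over the 6 pairings of the titles, above 0.1 in 5, and each of the 5 KO libraries correlated best with a WT library of its own pair, a hint from the data and not from the design. The causes of these losses were not tested.

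Regions open in both KO and no WT 3W library were 3, 1 with equal numbers of strongest peaks, and 4 to 19 when libraries were left out. Leaving out a library drops a condition of the pattern, so counts with libraries left out tend to rise by construction, here and below. Those open in all WT 3W and no KO library were 0 to 3. Those open in all HFD and no WT 3W library were 4 with −log10 q of at least 5 and 4 where peaks cover at least 50% of the region, and 1 to 5 when libraries were left out. Those open in all WT 3W and no HFD library were 0, 5 and 0 with those 3 settings, equal numbers second, and 1 to 2 when libraries were left out.

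Over all genes, calls ranged over all alternatives, left-out libraries included, from 50 to 399 for P12 to WT 3W (255 as reported), 780.0 to 1859 for WT 3W to 6M (1699) and 664 to 1556 for WT 3W to 1W HFD (1257). The lowest of the last was without WT 1W HFD replicate 3. They ranged from 8 to 194 for 6M to 12W HFD (138), 58 to 271 for KO 3W to 1W HFD (135; 271 without KO 3W replicate 1), 298 to 886 for KO 3W to 12W HFD (806; 298 without KO 12W HFD replicate 2) and 14 to 128 for KO 1W to 12W HFD (119). In KO against WT they ranged from 0 to 2 at 3W (0), 1 to 26 at 1W HFD (4) and 0 to 22 at 12W HFD (1), and in the tests of differing change from 0 to 12, 0 to 9 and 0 to 16. The 26, 12 and 16 are without KO 1W HFD replicate 2. Median-ratio scaling turned the split from 626 higher and 1073 lower to 1005 and 563 for WT 3W to 6M. It moved the split from 554 and 374 to 645 and 268 for WT 1W to 12W HFD, from 110 and 28 to 60 and 44 for 6M to 12W HFD, and from 77 and 42 to 98 and 30 for KO 1W to 12W HFD. Without WT 6M replicate 2 the split was 525 and 363 for WT 3W to 6M and 46 and 100 for 6M to 12W HFD. For P12 to WT 3W (98 and 157) it was 126 and 84 with a pseudocount of 0.1 and 101 and 78 without WT P12 replicate 1. For KO 3W to 1W HFD (67 and 68) it was 35 and 58 with that pseudocount and 35 and 23 without KO 1W HFD replicate 2. Median-ratio scaling moved the median over all genes from -0.24 to -0.03 for WT 3W to 6M. TPM gives no depth, so values near 0 have no counting limit.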
